A study of Mus musculus with 12 samples.

Results

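Genes of the gamma-aminobutyric acid (GABA) system and of the interneurons that release it were followed through the hippocampus of *Fmr1* knockout (KO) and wild-type (WT) mice. The group held 31 genes taken from a list of symbols, namely 9 GABA-A receptor subunits, 2 GABA-B receptor subunits, 6 genes of GABA synthesis, transport, breakdown and synaptic scaffolding, 10 peptides, calcium-binding proteins and other products that mark interneurons, and 4 interneuron transcription factors. All 31 were among the 22592 genes counted more than 20 times when the 12 libraries were added up. The mice were of C57B/L6 background and carried either the *Fmr1* deletion, a model of fragile X syndrome, or the WT allele. Each received 5 intraperitoneal injections, every other day from 2 months of age, of vehicle (Veh) or of 10 mg/kg Nutlin-3 (Nut3), a small molecule that blocks the binding of MDM2 to p53, which was dissolved in dimethyl sulfoxide. Hippocampi were collected at 6 months and gave 3 polyadenylated RNA libraries per group, each from an animal with its own number, namely WT-Veh (RH2, RH5 and RH15), WT-Nut3 (RH1, RH9 and RH14), KO-Veh (RH7, RH10 and RH16) and KO-Nut3 (RH6, RH8 and RH13). Between 17150820 and 20040482 reads per library were assigned to genes, and levels are given as CPM, the usual count scaled to the reads a library has on genes after TMM scaling between libraries, which makes libraries comparable. A library holds RNA of the whole dissected tissue, so that fewer cells of a type and less RNA per cell cannot be told apart. The labels do not say whether these mice carried the Nestin-GFP transgene of some of the study's crosses. The libraries were made to learn which hippocampal transcripts differ long after a short treatment.

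GABA is the main inhibitory transmitter of the adult hippocampus, where a minority of neurons, the interneurons, make it from glutamate and load it into vesicles. It opens chloride channels built of GABA-A subunits and acts more slowly through GABA-B receptors, which couple to G proteins, and it is cleared by transporters on neurons and astrocytes. Interneurons are sorted into classes by the peptides and calcium-binding proteins they hold. Transcription factors such as *Lhx6* and the *Dlx* genes mark their origin in the ganglionic eminences of the embryo.

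The genotype labels were checked first on *Fmr1* itself, whose level was between 74.0 and 79.5 CPM in the 6 WT libraries and between 28.5 and 37.3 CPM in the 6 KO libraries. The groups did not overlap. The tissue label was checked on 12 markers of pyramidal and dentate granule neurons, whose summed level lay between 3264 and 3704 CPM in 11 libraries, with *Slc17a7*, the vesicular glutamate transporter of these neurons, as the most abundant gene. The KO-Nut3 library RH6 stood apart at 2260.5 CPM, and 10 of the 12 markers were lowest there. In the same library 10 thalamic markers summed to 416 CPM against 187 to 215 CPM elsewhere, with 5 of the 10 above all other libraries and 0 below. One of the markers, *Calb2*, is also among the 31 genes, and without it the sum was 363 CPM against 162 to 189 CPM. *Tcf7l2* of this list was at 32.7 CPM against 4.75 to 7.33 CPM, while *Ntng1*, the most abundant of the list in the other libraries, was at 51.7 CPM, within the range of the others. *Slc17a6*, the vesicular glutamate transporter of thalamus and brainstem, was at 113 CPM in RH6 and between 8.42 and 22.2 CPM in the other 11 libraries.

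A list of 20 genes of midbrain and hindbrain neurons was written after values had been seen, so its counts describe RH6 and test nothing. *Slc17a6* is on this list and on the thalamic one. Of the 19 genes of the new list with enough counts, 19 were highest in RH6, and their sum was 391 CPM against 84.0 to 117 CPM elsewhere. *Nefh*, a neurofilament subunit, was the most abundant gene of that list. *Pax7* reached 13.7 CPM in RH6, was at 0.05 CPM in WT-Nut3 RH1 and had no count in the other 10 libraries. *Tfap2b* reached 24.2 CPM against at most 0.44 CPM, and *Irx2* reached 10.1 CPM against at most 0.23 CPM. A second difference concerned 4 of the 6 treated libraries. The summed level of 10 choroid plexus markers was 6501 CPM in WT-Nut3 RH9. In KO-Nut3 it was 6959.5 CPM in RH13, 5017 CPM in RH6 and 649 CPM in RH8, and it lay between 148 and 213 CPM in the other 8 libraries, WT-Nut3 RH1 and RH14 among them, with *Ttr* (transthyretin) as the most abundant gene. None of the 10 choroid plexus genes was at 0 in all vehicle libraries. The part of either difference in the values of the GABA genes was not tested. Most fold changes and counts that involve KO-Nut3 are therefore given with and without RH6.

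**Figure D1:**
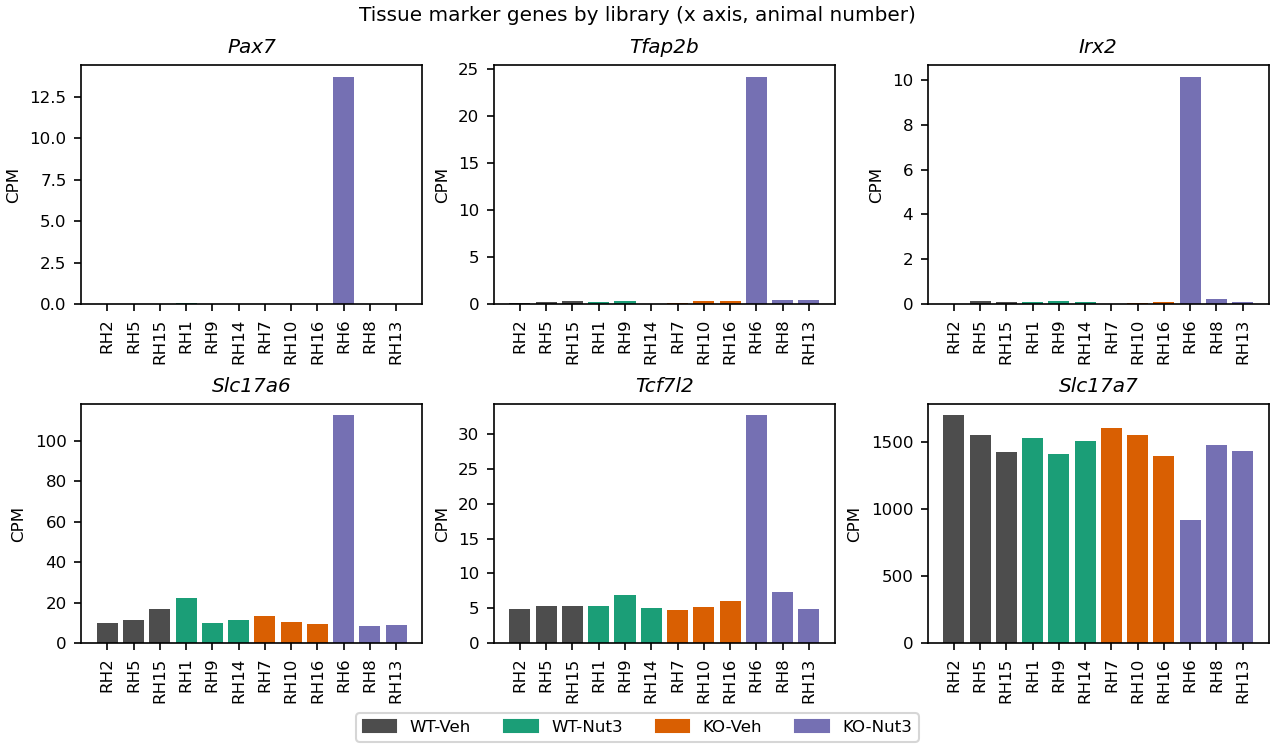
CPM (y axis, from 0) of 6 tissue marker genes in the 12 libraries (x axis, animal number), with bars coloured by group and no replicate error, since each bar is 1 library. KO-Nut3 RH6 is the tallest bar for *Pax7*, *Tfap2b*, *Irx2*, *Slc17a6* and *Tcf7l2* and the shortest for *Slc17a7*, at 916 CPM.

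Levels were ordered per length of exon (CPM per kilobase, RPKM; mean over the 12 libraries). *Sst*, the peptide somatostatin, led with 253 ± 35.2 RPKM (SD, n = 12), followed by *Cck*, cholecystokinin, which pyramidal cells also make, with 203 ± 26.4 RPKM. Their ranges overlapped. *Gabbr1*, the GABA-B subunit that binds the transmitter, came next with 94.1 ± 4.47 RPKM and overlapped neither *Cck* above it nor *Gabra5* below it. *Gabra5*, a GABA-A subunit abundant in hippocampus, had a level of 51.9 ± 5.20 RPKM, and *Gabbr2*, the partner of *Gabbr1*, had 49.7 ± 3.19 RPKM. From *Gabra5* to *Dlx1* (7.32 ± 0.751 RPKM) each gene overlapped its neighbour in the order. *Lhx6* followed after a gap with 3.94 ± 0.576 RPKM, and the lowest level was that of *Tac2*, neurokinin B, with 1.52 ± 0.475 RPKM. *Gad1* and *Gad2*, the enzymes that make GABA, stood at 41.4 ± 2.62 and 28.8 ± 5.87 RPKM, and the vesicular GABA transporter *Slc32a1* at 23.2 ± 3.98 RPKM. Among the cell class markers the order per length was *Sst*, *Cck*, *Npy* (43.6 RPKM), *Pvalb* (20.2 RPKM), *Calb2* (15.5 RPKM), *Nos1* (10.5 RPKM), *Reln* (3.48 RPKM), *Vip* (3.38 RPKM), *Tac1* (2.51 RPKM) and *Tac2*.

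**Figure D2:**
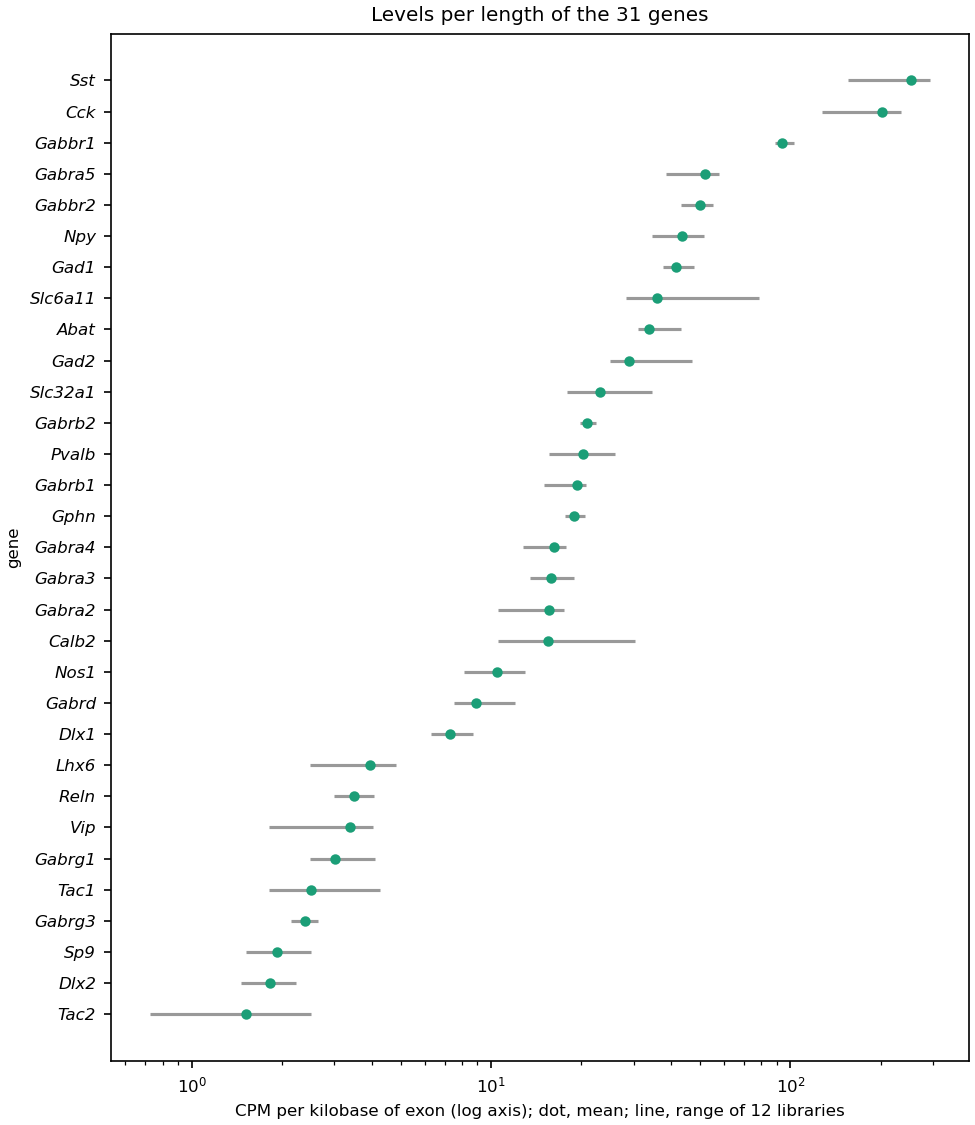
Level per length of exon (x axis, CPM per kilobase, log axis) of the 31 genes (y axis), with the mean (dot) and the lowest to highest value (line) of the 12 libraries. *Sst* and *Cck* stand above all others, and the long lower tails of *Sst* and *Cck* and the long upper tails of *Slc6a11*, *Gad2* and *Calb2* end at KO-Nut3 RH6.

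RH6 was the highest or the lowest of the 12 libraries for 23 of the 31 genes (74.2%), against 30.4% of all genes tested and 36.0% of the 15346 genes with a mean of at least 1 CPM. The other 11 libraries were extreme for 0 to 8 of the 31. The median absolute log2 distance of a gene from its mean in the other libraries was 0.39 in RH6 and between 0.07 and 0.11 in each other library. Over all genes of at least 1 CPM it was 0.16 in RH6 and between 0.08 and 0.12 in each other library. In RH6, genes of GABA synthesis, loading and uptake were above all others and several receptor subunits, peptides and *Lhx6* were below all others, so the library was not shifted in a single direction. The genes above were *Gabrg1*, *Gad1*, *Gad2*, *Slc32a1*, *Slc6a11*, *Abat*, *Pvalb*, *Calb2*, *Reln* and *Tac1*. The genes below were *Gabra2*, *Gabra4*, *Gabra5*, *Gabrb1*, *Gabbr2*, *Gphn*, *Sst*, *Vip*, *Npy*, *Cck*, *Nos1*, *Lhx6* and *Tac2*, and the remaining 8 lay within the range of the other libraries. Over all 12 libraries the SD of log2 CPM had a median of 0.19 across the 31 genes, and without RH6 it was 0.12, against 0.14 and 0.13 for all genes of at least 1 CPM.

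**Figure D3:**
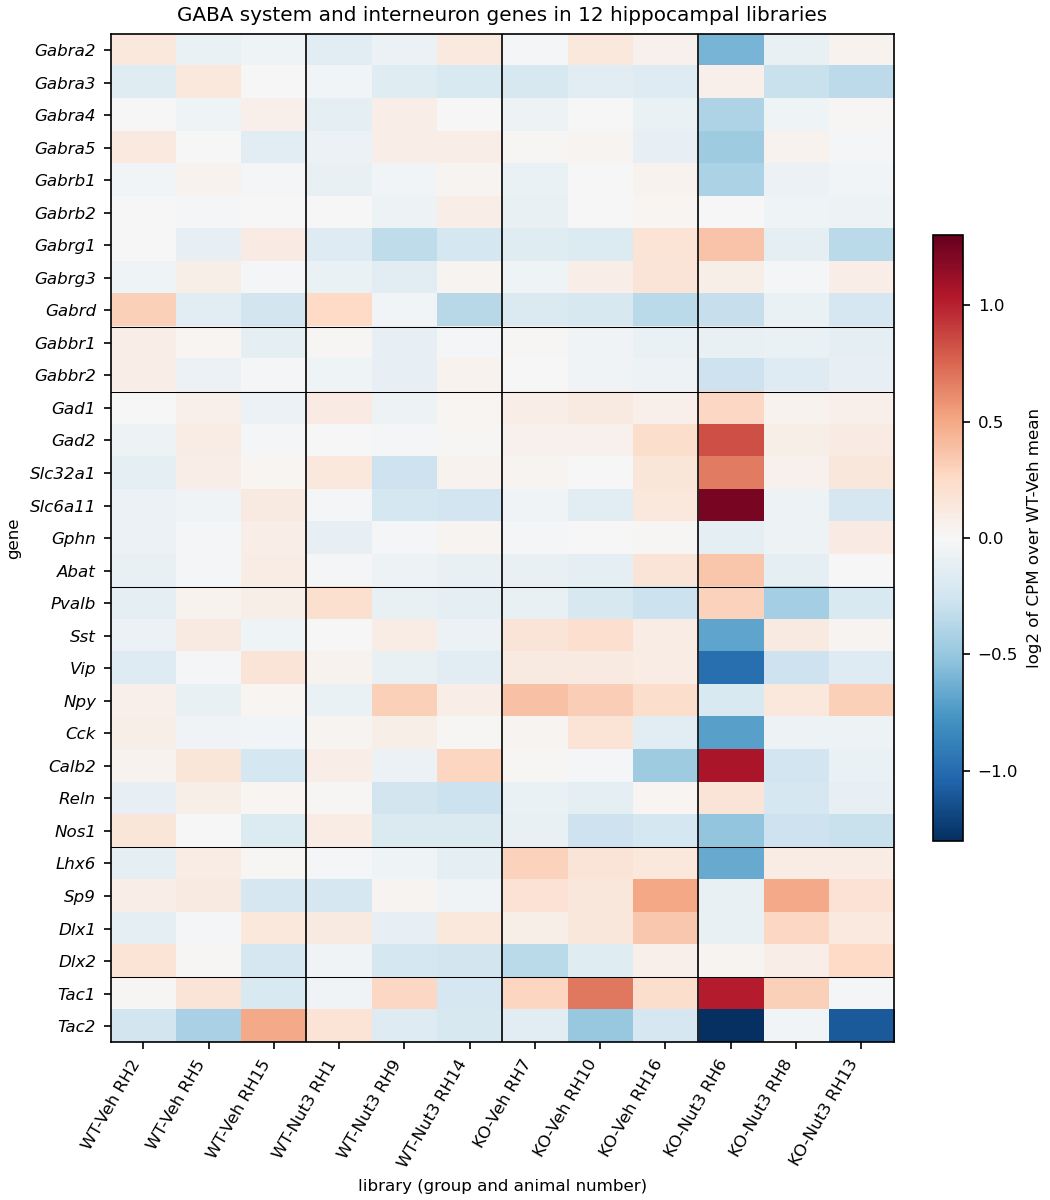
Log2 of CPM over the WT-Veh mean (colour, red higher and blue lower, scale limited to 1.3 on either side) of the 31 genes (rows, ordered by role, thin lines between roles) in the 12 libraries (columns, thick lines between groups). The column of KO-Nut3 RH6 holds the deepest colours in both directions, with *Slc6a11*, *Calb2* and *Tac1* higher and *Tac2*, *Vip* and *Cck* lower.

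No member of the group passed an adjusted *P* of 0.05 in any of 8 comparisons (edgeR quasi-likelihood test with Benjamini-Hochberg adjustment over all 22592 genes), and none did with DESeq2 or limma-voom. Between KO-Veh and WT-Veh 0.0177% of all genes passed. At an unadjusted *P* under 0.05 the count was 6 of 31 (19.4%) against 7.2% of all genes. Of these, 4 were higher and 2 lower in KO-Veh, against 3.08% and 4.12% of all genes. With DESeq2 and limma-voom the count was 4 and 5. The shares of all genes under those 2 methods are not given, so no excess is read from these counts. The KO-Veh and WT-Veh libraries did not overlap for 4 of 31 genes (12.9%), against 12.4% of all genes, and all 4 were higher in KO-Veh, against 5.9%. The median log2 fold change was -0.01 over the 31 genes and 0.00 over all genes. All 31 of the 95% intervals of the fold change lay within 1 log2 unit of 0 and 25 lay within 0.5.

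For KO against WT over both treatments 0.00443% of all genes passed the adjusted threshold, and 4 of 31 genes (12.9%) were under an unadjusted *P* of 0.05 against 8.16% of all genes. Without RH6 this count became 10 of 31 (32.3%) against 8.88%, with 7 higher and 3 lower in KO against 3.74% and 5.14% of all genes. Again none passed adjustment, against 0.0443% of all genes, the smallest adjusted *P* being 0.343. Between KO-Nut3 and KO-Veh 0.199% of all genes passed, and 2 of 31 (6.45%) were under an unadjusted *P* of 0.05 against 7.6% of all genes, both lower in KO-Nut3 (1.85% of all genes). Without RH6 0.288% of all genes passed, and the unadjusted count was again 2 of 31 (*Vip* and *Gabra3*), against 6.37%. Between WT-Nut3 and WT-Veh no gene passed, and 1 of 31 (3.23%) was under the unadjusted threshold against 3.17%. These comparisons share groups, since KO-Veh enters the first as well as the third and WT-Veh the first as well as the fourth. The second, KO against WT over both treatments, uses all 12 libraries and so reuses those of the others. Its counts are not separate evidence from theirs.

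In the remaining comparisons the unadjusted counts with all libraries and both directions pooled were a smaller share of the 31 genes than of all genes. The members counted were all lower in the first group named, and in that direction alone their share was the larger. Between KO-Nut3 and WT-Nut3 0.00443% of all genes passed adjustment. There 1 of 31 (3.23%) was under an unadjusted *P* of 0.05 against 4.87% of all genes, and it was lower in KO-Nut3 (2.08% of all genes). Without RH6 3 were (9.68%), against 4.11%, with 1 higher and 2 lower against 2.06% and 2.05%. Between KO-Nut3 and WT-Veh, again with 0.00443% passing, the count was 2 of 31 (6.45%) against 9.17%, both lower in KO-Nut3 (3.55% of all genes). Without RH6 it was 4 (12.9%) against 8.53%, all lower in KO-Nut3 (3.97%), and 0.0221% of all genes passed. For Nutlin-3 against vehicle over both genotypes no gene passed. Here 1 of 31 (3.23%) was under the unadjusted threshold against 7.29%, and it was lower in the treated libraries (2.28% of all genes). Without RH6 4 were (12.9%), all lower in the treated libraries, against 6.06% in either direction and 2.14% lower. The interaction of genotype and treatment gave 0 of 31 against 4.17% (0 against 3.38% without RH6). With DESeq2 it gave 0 and with limma-voom 1, again without the share of all genes under those methods. The 95% intervals of the interaction reached beyond 1 log2 unit for *Slc6a11*, *Calb2* and *Tac2*, and without RH6 for *Dlx2* and *Tac2*.

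Groups whose libraries did not overlap were counted as well. KO-Nut3 and KO-Veh did not overlap for 3 genes against 13.3% of all genes, and without RH6 for 6 (19.4%) against 21.1%. KO-Nut3 and WT-Nut3 did not overlap for 5 genes (16.1%) against 10.7%, with *Gad2* and *Dlx2* higher (5.3% of all genes) and *Vip*, *Cck* and *Nos1* lower in KO-Nut3 (5.35%), and without RH6 for 10 (32.3%) against 19.5%. KO-Nut3 lay below WT-Veh for *Gabrb1*, *Gabbr2*, *Cck* and *Nos1*, which made 4 genes without overlap (12.9%) against 7.09% of all genes in that direction and 15% in either, and without RH6 there were 11 (35.5%) against 24.9%. All KO and all WT libraries overlapped for each of the 31 genes, against 0.536% of all genes without overlap, as did all treated and all vehicle libraries, against 0.243% (0.385% without RH6).

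The 9 GABA-A subunits summed to 770 CPM in RH6 and to between 894 and 959 CPM in the other 11 libraries. *Gabrg1* was above and 4 subunits were below all other libraries in RH6. Within each group the values that follow are in the order of animal numbers given at the outset. *Gabra2*, a subunit that carries a binding site for benzodiazepines, was at 134, 115 and 118 CPM in WT-Veh, 111, 116 and 133 in WT-Nut3, 119.8, 134 and 127 in KO-Veh and 80.7, 114 and 126 in KO-Nut3. *Gabra5* was at 172, 158 and 142 CPM in WT-Veh, 149, 167 and 167 in WT-Nut3, 159, 161 and 146 in KO-Veh and 114, 162 and 154 in KO-Nut3. In both genes the first KO-Nut3 value, RH6, was the lowest of the 12 and the groups otherwise overlapped. *Gabrd*, a subunit of extrasynaptic receptors in dentate granule cells, was at 34.5, 25.3 and 23.6 CPM in WT-Veh, 33.2, 27.2 and 21.6 in WT-Nut3, 24.4, 24.02 and 21.8 in KO-Veh and 22.5, 26.1 and 23.9 in KO-Nut3. WT-Veh RH2 and WT-Nut3 RH1 were the 2 highest libraries, and KO-Veh differed from WT-Veh by -0.24 ± 0.12 (log2 fold change ± SE), adjusted *P* = 0.736, and by -0.06 without WT-Veh RH2.

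*Gabra3* was the subunit with the smallest *P* in KO-Veh against WT-Veh, averaging 59.8 ± 1.37 CPM in KO-Veh against 67.3 ± 6.94 CPM for WT-Veh (SD, n = 3), a log2 fold change of -0.17 ± 0.07 at an adjusted *P* of 0.673. Without WT-Veh RH5 the difference was -0.10. RH6, at 70.5 CPM, was the highest KO library for this gene. Over both treatments the difference was -0.11 with RH6 and -0.18 ± 0.05 without it (adjusted *P* = 0.720 and 0.343). *Gabrg1*, a gamma subunit that astrocytes also make, was at 24.8, 23.2 and 26.7 CPM in WT-Veh, 22.1, 19.8 and 21.3 in WT-Nut3, 22.4, 22.04 and 28.2 in KO-Veh and 32.3, 22.9 and 19.6 in KO-Nut3. All WT-Nut3 libraries were below all WT-Veh libraries, which held for this gene alone of the 31 (3.23%) against 3.92% of all genes (7.52% without overlap in either direction), and the log2 fold change was -0.24 ± 0.09 (adjusted *P* = 0.998). In KO the libraries RH6 and RH16 were highest and KO-Nut3 and KO-Veh overlapped. *Gabra4*, *Gabrb1*, *Gabrb2* and *Gabrg3* differed between KO-Veh and WT-Veh by log2 fold changes between -0.05 and 0.07, and none was under the unadjusted threshold. *Gabrb2* averaged 134 ± 0.863 CPM in WT-Veh against 132 ± 5.74 CPM for KO-Veh.

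The GABA-B subunits were both lower in KO-Nut3 than in the other groups on average, within the spread for *Gabbr1*. *Gabbr1* was at 799, 765 and 696 CPM in WT-Veh, 763, 699 and 739 in WT-Nut3, 762, 729 and 709 in KO-Veh and 706, 711 and 689.6 in KO-Nut3. The groups overlapped in each comparison with KO-Nut3, and the log2 fold change from KO-Veh was -0.07 ± 0.06, and -0.07 ± 0.05 without RH6. *Gabbr2* was at 369, 329.9 and 342 CPM in WT-Veh, 333, 322 and 358 in WT-Nut3, 346, 336 and 332 in KO-Veh and 288, 309.8 and 323 in KO-Nut3. The 3 KO-Nut3 libraries were below all KO-Veh libraries and below all WT-Veh libraries, whereas RH13 overlapped WT-Nut3. The log2 fold change from KO-Veh was -0.14 ± 0.06 (adjusted *P* = 0.646) and -0.10 ± 0.05 without RH6, and from WT-Veh it was -0.18 ± 0.07 (adjusted *P* = 0.506), or -0.14 ± 0.06 without RH6.

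The genes that make and load GABA were close together in 11 libraries. *Gad1* was at 304, 318 and 287 CPM in WT-Veh, 326, 289 and 309 in WT-Nut3, 321, 329 and 317 in KO-Veh and 365, 313 and 316 in KO-Nut3. *Gad2* was at 147, 165 and 152 CPM in WT-Veh, 155, 152 and 156 in WT-Nut3, 161, 161 and 181 in KO-Veh and 275, 163 and 166 in KO-Nut3. RH6 was the highest library for both, and for *Gad2* it lay far above the next value. *Gad2* was higher in KO than in WT by 0.25 ± 0.11 over both treatments (adjusted *P* = 0.559), and by 0.11 ± 0.04 without RH6 (adjusted *P* = 0.468). Between KO-Nut3 and WT-Nut3 the difference was 0.38 ± 0.18 with RH6 and 0.09 ± 0.05 without it, and the 3 KO-Nut3 libraries lay above the 3 WT-Nut3 libraries in this comparison. *Slc32a1*, the vesicular GABA transporter, was at 55.8, 64.1 and 61.5 CPM in WT-Veh, 66.4, 50.2 and 62.6 in WT-Nut3, 61.99, 60.8 and 67.6 in KO-Veh and 96.6, 62.8 and 67.1 in KO-Nut3. RH6 was again highest and the remaining KO-Nut3 values overlapped KO-Veh. The exons of *Slc32a1* share 24.9% of their bases with *Gm14205*, and reads that fall on both genes were left out of the counts.

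Clearance and scaffold genes gave the single largest excursion. *Slc6a11*, the GABA transporter GAT3 of astrocytes, was at 160.3, 163 and 183 CPM in WT-Veh, 166, 144 and 143 in WT-Nut3, 164, 154 and 185 in KO-Veh and 397, 161 and 146 in KO-Nut3. RH6 was 2.47 times the median of the other 11 libraries, and the summed level of 10 astrocyte markers, of which *Slc6a11* is 1, was 5374 CPM in RH6, within the 4904 to 6118 CPM of the others. That sum is led by *Slc1a2*, and singly 4 of the 10 astrocyte genes were above and 2, *Slc1a2* and *Slc1a3*, below all other libraries in RH6. Without *Slc6a11* the sum was 4977 CPM against 4760 to 5933 CPM, and the part of astrocyte RNA in the *Slc6a11* value was not tested. The log2 fold change of KO-Nut3 from KO-Veh was 0.48 ± 0.32 with RH6 and -0.13 ± 0.08 without it, a change of sign. WT-Nut3 differed from WT-Veh by -0.16 ± 0.07 (adjusted *P* = 0.998), and by -0.10 when WT-Veh RH15 was left out. Over both genotypes the treated libraries differed by 0.16 ± 0.20 with RH6 and by -0.15 ± 0.06 without it (adjusted *P* = 0.701). *Abat*, which breaks GABA down, was at 335 CPM in RH6 and between 239 and 292 CPM in the others. *Gphn*, gephyrin, which anchors receptors at inhibitory synapses, had group means between 70.6 and 71.9 CPM.

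**Figure D4:**
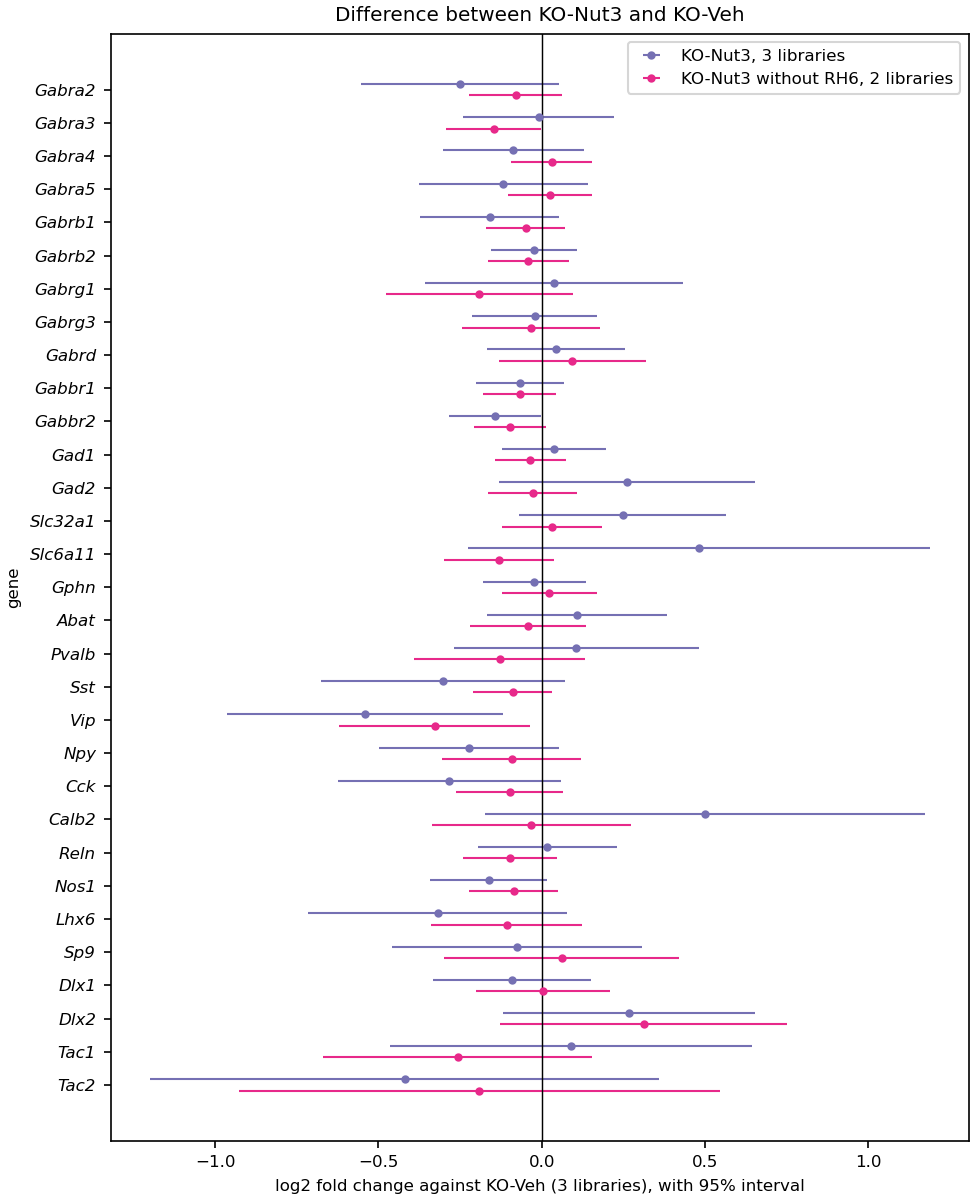
Log2 fold change of KO-Nut3 against KO-Veh (x axis, points, with 95% intervals as lines) for the 31 genes (y axis), with all 3 KO-Nut3 libraries and without RH6. Leaving out RH6 moves *Slc6a11* from 0.48 to -0.13, *Calb2* from 0.50 to -0.03 and *Gad2* from 0.26 to -0.03, and narrows most intervals.

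The peptide markers of interneurons gave the members with the smallest *P* between the vehicle groups, *Npy* and *Sst*. Neuropeptide Y and somatostatin are made together by many dendrite-targeting interneurons. Their promoter windows (RefSeq, GRCm38.p6, from 250 bases before to 50 after the start) are shown because these 2 genes led the comparison, with the cyclic AMP response element TGACGTCA in capitals, which is its own reverse complement. *Sst* lies on chromosome 16, minus strand (window chr16:23890795-23891094), and *Npy* on chromosome 6, plus strand (window chr6:49822460-49822759).
Sst: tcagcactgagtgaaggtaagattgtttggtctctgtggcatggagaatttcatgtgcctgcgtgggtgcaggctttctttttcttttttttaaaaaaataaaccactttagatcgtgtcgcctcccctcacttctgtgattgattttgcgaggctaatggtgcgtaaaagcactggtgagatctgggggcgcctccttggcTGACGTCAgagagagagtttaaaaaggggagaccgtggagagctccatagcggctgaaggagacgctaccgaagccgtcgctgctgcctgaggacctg
Npy: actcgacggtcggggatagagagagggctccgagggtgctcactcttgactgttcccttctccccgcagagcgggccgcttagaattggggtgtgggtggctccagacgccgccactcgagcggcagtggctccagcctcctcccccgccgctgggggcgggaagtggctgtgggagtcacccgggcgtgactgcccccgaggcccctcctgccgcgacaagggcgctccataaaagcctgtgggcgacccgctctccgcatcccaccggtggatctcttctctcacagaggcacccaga
The element begins 48 bases before the *Sst* start and is absent from the *Npy* window. It was found in 1.79% of all 32851 windows and, of the 28 members with a window, in *Sst* alone. The TATA sequence TATAAA, searched on both strands, is in neither window, was in 13.6% of all windows and in those of 5 members (*Gabra3*, *Gabrb2*, *Gad1*, *Lhx6* and *Vip*).

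*Npy* was at 23.6, 21.01 and 22.8 CPM in WT-Veh, 21.1, 27.9 and 23.8 in WT-Nut3, 29.2, 28.1 and 26.4 in KO-Veh and 19.5, 24.6 and 27.8 in KO-Nut3. All KO-Veh libraries were above all WT-Veh libraries, and RH6 was the lowest of the 12. KO-Veh was higher by 0.31 ± 0.09 on the log2 scale, with an adjusted *P* of 0.599. KO-Nut3 differed from WT-Nut3 by -0.02 ± 0.15, and by 0.11 ± 0.13 without RH6, and the interaction was -0.33 ± 0.17 (adjusted *P* = 0.994), or -0.21 ± 0.15 without RH6 and -0.22 without WT-Nut3 RH9. *Sst* was at 172, 197 and 175 CPM in WT-Veh, 180.4, 193 and 171 in WT-Nut3, 204, 211 and 194 in KO-Veh and 113, 196 and 186 in KO-Nut3. The KO-Veh values lay above WT-Veh except for WT-Veh RH5, which was above KO-Veh RH16, and RH6 was 0.58 times the median of the other 11 libraries. KO-Veh was higher by 0.16 ± 0.06 (adjusted *P* = 0.631), and over both treatments the difference was 0.01 ± 0.11 with RH6 and 0.12 ± 0.05 without it (adjusted *P* = 0.986 and 0.455).

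*Nos1*, neuronal nitric oxide synthase, was lower on average in KO than in WT under either treatment. It was at 145, 131 and 115 CPM in WT-Veh, 139.5, 114 and 114 in WT-Nut3, 122, 108 and 111 in KO-Veh and 90.95, 108 and 106 in KO-Nut3. The highest library was WT-Veh RH2 and the lowest KO-Nut3 RH6, and all KO-Nut3 libraries were below all WT-Veh and all WT-Nut3 libraries, while KO-Veh overlapped both. The log2 fold change was -0.19 ± 0.08 for KO-Veh against WT-Veh (adjusted *P* = 0.653), -0.27 ± 0.10 for KO-Nut3 against WT-Nut3 (adjusted *P* = 0.928) and -0.35 ± 0.10 for KO-Nut3 against WT-Veh (adjusted *P* = 0.303). Without RH6 the last 2 values were -0.19 ± 0.09 and -0.28 ± 0.09. Single WT libraries also moved the differences, to -0.11 between the vehicle groups without WT-Veh RH2 and to -0.17 between the treated groups without WT-Nut3 RH1. Over both treatments the difference was -0.23 ± 0.07, and -0.20 ± 0.06 without RH6 (adjusted *P* = 0.426 and 0.377). *Nos1* is also made by pyramidal cells. The summed markers of pyramidal and dentate granule neurons were lowest in RH6, and the part of these cells in the *Nos1* values was not tested.

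*Vip*, vasoactive intestinal peptide, a marker of interneurons that contact other interneurons, had the smallest *P* between KO-Nut3 and KO-Veh. It was at 10.8, 12.03 and 13.7 CPM in WT-Veh, 12.6, 11.4 and 11.05 in WT-Nut3, 13.2, 13.2 and 12.99 in KO-Veh and 6.16, 10.1 and 10.9 in KO-Nut3. All KO-Nut3 libraries were below all KO-Veh libraries, which held for 3 of the 31 genes (*Vip*, *Gabbr2* and *Lhx6*, 9.68%) against 5.44% of all genes, and the 3 KO-Veh values were within 0.26 CPM of each other. The log2 fold change was -0.54 ± 0.19 (adjusted *P* = 0.484) and -0.33 ± 0.13 without RH6 (adjusted *P* = 0.694). In WT the treated libraries differed from vehicle by -0.06 ± 0.13, and the interaction was -0.48 ± 0.24 (adjusted *P* = 0.994), or -0.27 ± 0.18 without RH6.

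*Pvalb*, parvalbumin, which marks fast-spiking interneurons, was at 20.2, 22.7 and 23.3 CPM in WT-Veh, 25.6, 20.7 and 20.1 in WT-Nut3, 20.6, 19.1 and 18.2 in KO-Veh and 27.1, 16.2 and 19.2 in KO-Nut3. RH6 was the highest library and RH8 the lowest, so that the KO-Nut3 group spanned the whole range. KO-Veh differed from WT-Veh by -0.19 ± 0.10 (adjusted *P* = 0.730), and KO from WT over both treatments by -0.14 ± 0.11 with RH6 and -0.25 ± 0.08 without it (adjusted *P* = 0.787 and 0.374). *Cck* was at 286, 264 and 265 CPM in WT-Veh, 278, 286 and 275 in WT-Nut3, 278, 306 and 248 in KO-Veh and 167, 259 and 260.1 in KO-Nut3. RH6 was lowest, and KO-Nut3 differed from KO-Veh by -0.28 ± 0.15, or -0.10 ± 0.08 without RH6. *Calb2*, calretinin, which is also in the list of thalamic markers, was at 52.6 CPM in RH6 and between 18.3 and 30.7 CPM in the other libraries, and *Reln*, reelin, was at 96.9 CPM against 71.2 to 91.2 CPM.

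*Tac1*, the precursor of substance P, was at 7.23, 8.04 and 6.23 CPM in WT-Veh, 6.95, 8.64 and 6.17 in WT-Nut3, 8.72, 11.5 and 8.37 in KO-Veh and 14.5, 8.88 and 7.08 in KO-Nut3. All KO-Veh libraries were above all WT-Veh libraries, by 0.41 ± 0.16 on the log2 scale (adjusted *P* = 0.644), or by 0.26 without KO-Veh RH10, and over both treatments KO was higher by 0.45 ± 0.16 (adjusted *P* = 0.477), or by 0.29 ± 0.13 without RH6 (adjusted *P* = 0.558). RH6 was the highest library. *Tac2* had the widest intervals of the group, and its level was at most 3.45 CPM.

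The transcription factors *Lhx6*, *Sp9* and *Dlx1* were higher in KO-Veh than in WT-Veh on average, and *Dlx2* was not. *Lhx6*, needed by interneurons of the medial ganglionic eminence, was at 17.3, 20.01 and 19.00 CPM in WT-Veh, 18.4, 18.03 and 17.3 in WT-Nut3, 23.1, 21.03 and 20.6 in KO-Veh and 11.9, 20.05 and 20.1 in KO-Nut3. Without RH6 all 5 KO libraries were above all 6 WT libraries, at 0.18 ± 0.06 on the log2 scale (adjusted *P* = 0.406), and with RH6, the lowest of the 12 libraries, the difference was 0.08 ± 0.11. *Sp9* was at 9.49, 9.67 and 7.67 CPM in WT-Veh, 7.71, 9.19 and 8.69 in WT-Nut3, 10.2, 9.92 and 12.6 in KO-Veh and 8.37, 12.6 and 10.2 in KO-Nut3. It showed the same separation without RH6, at 0.35 ± 0.11 (adjusted *P* = 0.373), and 0.29 ± 0.11 with it (adjusted *P* = 0.518). Separation of this kind held for these 2 of 31 genes (6.45%) against 0.978% of all genes, and against 0.403% with KO the higher. *Sp9* is also a marker of migrating neuroblasts, as are *Dlx1* and *Dlx2*. The 10 neuroblast genes, *Tubb3* the most abundant, summed to 335 CPM in RH6 and to between 289.6 and 335 CPM elsewhere. Without the 3 that belong to the 31 genes the sum was 286 CPM in RH6 and between 241 and 272 CPM in WT, and the 2 libraries with the most *Sp9*, RH16 and RH8, were within the WT range at 269 and 248 CPM. Of these 7 genes, *Sp8* and *Igfbpl1* are given by library, with *Dlx5* and *Dlx6os1* beside them. They were picked after their values were seen and do not stand for the list, whose sum is given above. *Sp8* was at 1.05 to 2.13 CPM in WT, 1.65, 1.58 and 5.98 in KO-Veh and 4.99, 3.04 and 2.97 in KO-Nut3. *Igfbpl1* was at 0.683 to 2.75 CPM in WT, 0.774, 1.13 and 5.13 in KO-Veh and 3.88, 3.21 and 4.50 in KO-Nut3. Both were thus high in RH16 and above all WT libraries in KO-Nut3, and low in KO-Veh RH7 and RH10. *Dlx6os1* was also highest in RH16, at 27.6 CPM, but lowest of the 12 in RH6, at 12.3 CPM. *Dlx5* was at 3.44 CPM in RH6, within the 3.165 to 4.94 CPM of WT. Of the 10 neuroblast genes, 1 was above and 1 below all other libraries in RH6. The part of neuroblast RNA in the *Sp9* values was not tested. *Dlx1* averaged 42.5 ± 4.19 CPM in KO-Veh against 37.1 ± 3.39 CPM for WT-Veh (log2 fold change 0.19 ± 0.09, adjusted *P* = 0.685, and 0.12 without KO-Veh RH16), with 6.21% of its exon bases shared with *Dlx1as*. *Dlx2* was at 4.85 ± 0.703 and 5.34 ± 0.726 CPM.

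**Figure D5:**
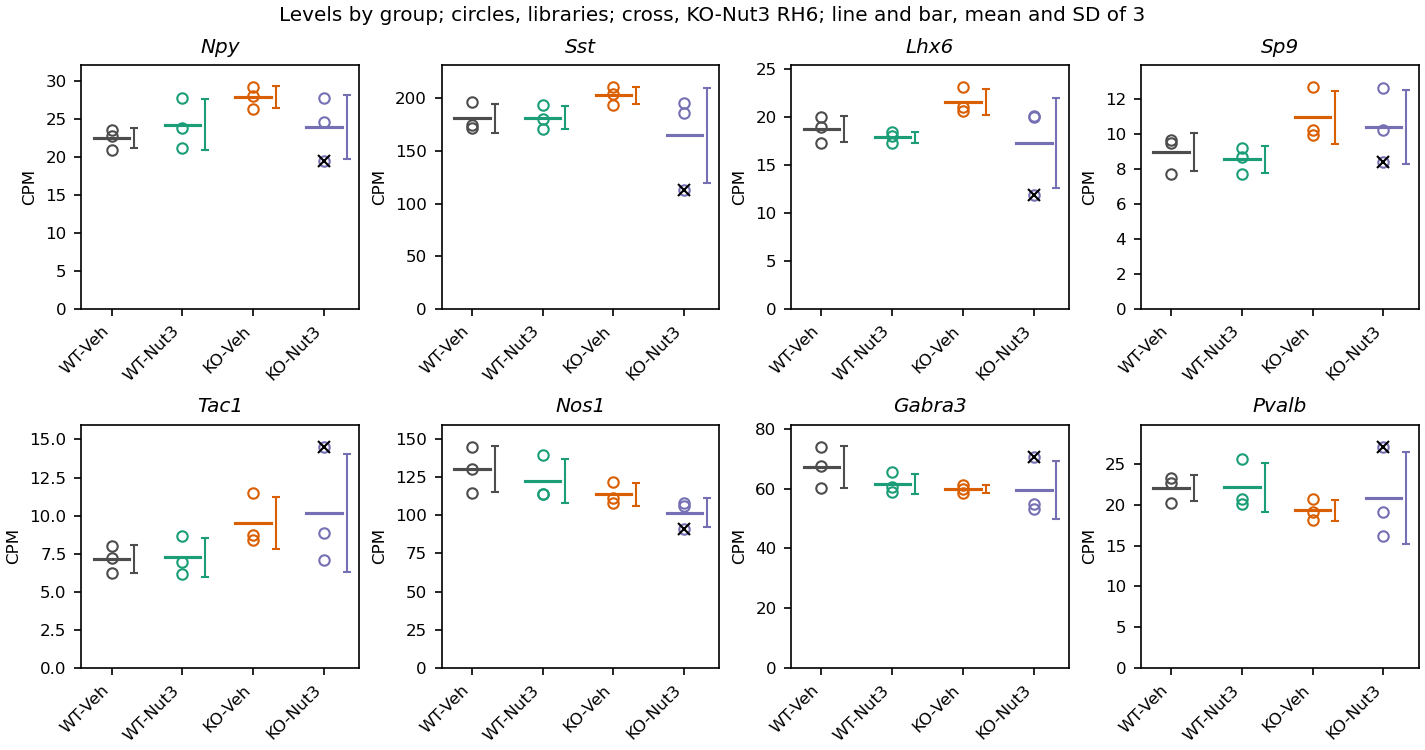
CPM (y axis, from 0) of 8 genes in the 4 groups (x axis). Circles are libraries, the cross marks KO-Nut3 RH6, and the horizontal line and bar are the mean and SD of 3 libraries. *Npy*, *Lhx6*, *Sp9* and *Tac1* have every KO-Veh circle above every WT-Veh circle, and *Nos1* has every KO-Nut3 circle below both WT groups.

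Pairs of genes that mark the same cells or act in the same step were compared across the 12 libraries. *Sst* and *Lhx6* moved together, with Pearson's r = 0.95 (permutation *P* adjusted over 6 pairs 0.0006) and Spearman's rho = 0.87 (adjusted 0.00282). The r was 0.80 without the 2 libraries farthest from the *Sst* median, 0.81 without RH6, 0.98 among animals numbered up to RH8 and 0.70 among those from RH9. The animals up to RH8 include RH6, the lowest of the 12 libraries for both genes, so values for that part do not leave RH6 out. *Sst* and *Npy* had r = 0.68 (permutation *P* adjusted 0.00788) and rho = 0.61 (adjusted 0.0851), and r was 0.46 without the 2 farthest libraries and 0.54 without RH6. For *Gad1* and *Gad2* r was 0.80 (permutation *P* adjusted 0.00788) and rho 0.60 (adjusted 0.0851). Without the 2 farthest libraries r was 0.43, so the size of this relation rested in part on them, as did that of *Sst* with *Npy*. Among animals from RH9, which leave out RH6, r was 0.64 for *Gad1* with *Gad2* and 0.83 for *Sst* with *Npy*. Among those up to RH8 it was 0.95 and 0.64. The r of *Pvalb* with *Lhx6* (-0.60, permutation *P* adjusted 0.0475) and of *Tac1* with *Tac2* (-0.60, permutation *P* adjusted 0.0475) moved to -0.25 and -0.16 without the farthest libraries. Their rho was -0.53 (adjusted 0.119) and -0.38 (adjusted 0.274). Among animals from RH9 r was -0.51 and -0.30, and among those up to RH8 it was -0.59 and -0.89. The neighbouring genes *Dlx1* and *Dlx2* had r = 0.03 (permutation *P* adjusted 0.933) and rho = 0.03 (adjusted 0.922).

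Further genes of inhibition, 63 in 4 lists, were read beside the 31. Of these 60 had enough counts, and none passed the adjusted threshold in the 8 comparisons with all libraries. Between KO-Veh and WT-Veh 2 were higher and 4 lower at an unadjusted *P* under 0.05, which is 6 of 60 beside the 3.08% higher and 4.12% lower among all genes, with a median log2 fold change of -0.02. The smallest *P* was that of *Crhbp*, a binding protein of corticotropin-releasing hormone that somatostatin interneurons hold. It was at 22.0, 24.1 and 23.8 CPM in WT-Veh, 24.9, 29.0 and 20.7 CPM in WT-Nut3, 29.0, 30.2 and 30.0 CPM in KO-Veh, and 18.6, 29.8 and 28.1 CPM in KO-Nut3. The 2 vehicle groups did not overlap, and KO-Veh was higher by 0.35 ± 0.08 on the log2 scale (adjusted *P* = 0.470). Over both treatments the difference was 0.19 ± 0.11 (adjusted *P* = 0.683), and 0.29 ± 0.07 without RH6, the lowest of the 12 libraries, and neither passed adjustment.

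Between KO-Nut3 and KO-Veh 6 of the 60 were higher and 2 lower at the unadjusted threshold, beside 5.75% and 1.85% of all genes. Without RH6 4 were higher and 3 lower, beside 4.66% and 1.72%. *Slc12a2*, the chloride importer NKCC1, was at 102, 96.5 and 92.7 CPM in KO-Veh and 179, 125 and 161 CPM in KO-Nut3, and at 75.2, 91.6 and 105 CPM in WT-Veh and 103, 153 and 106 CPM in WT-Nut3. Its highest levels were in RH6, RH13 and RH9, which are the 3 libraries with the most choroid plexus RNA, an epithelium known for this transporter, and whether that RNA accounts for them was not tested. The log2 fold change in KO was 0.67 ± 0.11 (adjusted *P* = 0.0563), and without RH6 it was 0.56 and passed (adjusted *P* = 0.0225), as it did without RH8 (0.80, adjusted *P* = 0.00074), whereas without any other single library of the 6 it did not, and in a fit of the 11 remaining libraries together the adjusted *P* was 0.589. The difference of WT-Nut3 from WT-Veh was 0.42 ± 0.15 (adjusted *P* = 0.998), and 0.21 without RH9. Over both genotypes the treated libraries differed by 0.54 ± 0.11 (adjusted *P* = 0.176) and KO-Nut3 from WT-Veh by 0.77 ± 0.14 (adjusted *P* = 0.143), and the latter passed without RH8 (0.91, adjusted *P* = 0.0140). Between KO-Nut3 and KO-Veh all 10 choroid plexus markers were higher after treatment at an unadjusted *P* under 0.05, with RH6 (5.75% of all genes higher) and without it (4.66%). Of these 4 passed adjustment with RH6 and 7 without it, beside 0.195% and 0.283% of all genes. The list was chosen with earlier results of these data known, so these counts describe the libraries and test nothing. It holds *Aqp1*, *Enpp2* and *Tmem72*, which the study itself reported as changed between these 2 groups. The betaine and GABA transporter *Slc6a12* was highest in KO-Nut3 RH8, at 7.62 CPM, and in WT-Veh RH5, at 3.31 CPM, with at most 2.94 CPM in the other libraries. *Slc6a13*, the transporter GAT2 of meninges, was likewise highest in RH8 and RH5, at 23.8 and 16.5 CPM, and at most 9.65 CPM elsewhere. The log2 fold changes of both between KO-Nut3 and KO-Veh were 2.30 ± 0.60 (adjusted *P* = 0.255) and 1.37 ± 0.45 (adjusted *P* = 0.429), and 2.47 ± 0.59 and 1.55 ± 0.43 without RH6. Without RH8, the highest library in both, they were 1.38 and 0.60. In WT the values of *Slc6a13* went the other way, by -1.02 ± 0.42 from WT-Veh to WT-Nut3 (adjusted *P* = 0.998), and KO-Veh differed from WT-Veh by -0.91 ± 0.35 (adjusted *P* = 0.635), and without WT-Veh RH5 these were -0.33 and -0.22. Those of *Slc6a12* were -0.64 ± 0.54 and -1.04 ± 0.53, and 0.43 and 0.03 without RH5. KO-Nut3 differed from WT-Nut3 by 1.90 ± 0.60 for *Slc6a12* and 1.48 ± 0.50 for *Slc6a13* (adjusted *P* = 0.928 for each), and by 0.99 and 0.71 without RH8. These 2 genes had the smallest unadjusted *P* of the 60 in the interaction of genotype and treatment, at 2.95 ± 0.92 for *Slc6a12* and 2.39 ± 0.71 for *Slc6a13*, and neither passed adjustment (adjusted *P* = 0.994 for each). Without WT-Veh RH5 the interaction of *Slc6a12* was 1.88.

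Over both treatments the smallest *P* of the lists belonged to *Nlgn2*, the neuroligin of inhibitory synapses, different in KO by -0.12 on the log2 scale (adjusted *P* = 0.472), and to *Kcnc2*, a potassium channel of fast-spiking neurons, different by -0.13 (adjusted *P* = 0.506), and both differed by -0.12 without RH6. *Dbi*, which encodes a peptide ligand of the benzodiazepine site, was higher by 0.25 ± 0.07 in KO-Nut3 than in WT-Veh (adjusted *P* = 0.289), or by 0.20 ± 0.06 without RH6. *Sncg*, a marker of some *Cck* interneurons, was at 8.21 CPM in RH6 and at most 3.46 CPM in the other libraries, and the treated libraries differed from vehicle by 0.75 ± 0.28 (adjusted *P* = 0.535), or by 0.39 without RH6.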

How the data were processed

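Whole-hippocampus polyadenylated RNA of 12 mice was sequenced. The authors deposited a table of read counts per gene for each library, which the submitters' notes credit to STAR on mm10. The labels give single reads and the study's methods paired-end reads. The unstranded counts were used, which leave out reads that fall on 2 genes. A second deposited table repeats these counts under other column names and was not used. Gene names came from GENCODE M21, which held 55240 of the 55421 identifiers, and promoters from RefSeq (GRCm38.p6). Genes with more than 20 counts in total (22592) were tested with edgeR 4.0.16 (R 4.3.3; TMM scaling, quasi-likelihood test, two-sided, Benjamini-Hochberg adjustment). Single pairs of groups were fitted on their 6 libraries, and genotype, treatment and their interaction on all 12. Log2 CPM used a prior count of 1. Alternatives were DESeq2 1.42.0, limma 3.58.1 (voom), other filters and scaling, the animal-number split (up to RH8, from RH9) and leaving out each library. Correlations used 100000 permutations. Scripts were tested on simulated data. The labels number animals separately, but P-values measure only the spread between these samples. The 31 members, the gene lists and the tests were chosen with earlier results of these data known. Values in every library are printed for 12 members chosen by name and for the 2 with the smallest P in each comparison, and for *Lhx6* and *Sp9*, which were added after their values were seen. Other genes are named for the smallest P of their lists.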

Additional observations from a re-analysis of the deposited data

How the results depend on the processing

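No member was called under any of 8 comparisons in the alternatives run, with these exceptions when every gene with at least 1 count was tested: 1 (*Nos1*) between KO-Nut3 and WT-Veh, 3 (*Gad2*, *Slc6a11* and *Nos1*) for KO against WT over both treatments, and 1 (*Slc6a11*) for the interaction. With that filter the adjusted *P* (edgeR quasi-likelihood test) of *Nos1* between KO-Nut3 and WT-Veh was 0.0339. For KO against WT it was 0.00989, 0.0457 and 0.00836 for *Gad2*, *Slc6a11* and *Nos1*, and for the interaction 1.31e-07 for *Slc6a11*. The share of all genes called with that filter is not given, so these calls are not read as particular to the members. The cause was not tested. Leaving out each library in turn gave 0 members called in every comparison (lowest 0, highest 0). The 22 fold changes of leading members kept their sign in all alternatives. Single libraries moved the size of several by over 1.5 times, most of them given with the result. Further such cases were *Vip* for Nutlin-3 against vehicle (-0.30, and -0.18 without RH6), *Gabra3* for KO against WT (-0.11, and -0.07 without WT-Veh RH5), *Pvalb* for KO against WT (-0.14, and -0.08 without RH8) and *Slc6a11*, which reached 0.73 between KO-Nut3 and KO-Veh without RH13, and 0.10 without KO-Veh RH10 and 0.25 without RH13 for Nutlin-3 against vehicle. Differences near 0 also moved in relative size or changed sign. The count of all genes called varied more. For KO-Veh against WT-Veh it was 4 and ran from 1 to 272 in the alternatives. For KO-Nut3 against KO-Veh it was 45 and ran from 0 to 544. For KO-Nut3 against WT-Nut3 it was 1 and ran from 0 to 38. In the other comparisons the main count was also the lowest. The range there was 0 to 249 (WT-Nut3 against WT-Veh), 1 to 416 (KO-Nut3 against WT-Veh) and 1 to 239 (KO against WT). It was 0 to 539 for Nutlin-3 against vehicle and 0 to 291 for the interaction. Leaving out 1 library alone moved the count between 6 and 266 for KO-Nut3 against KO-Veh and between 1 and 197 for KO-Nut3 against WT-Veh. A fit of 11 libraries together without RH6, chosen after seeing the data, called no member. Size factors of DESeq2 moved the median of all genes by at most 0.0066 on the log2 scale in size. The correlation of *Gad1* with *Gad2* moved to 0.43 without the 2 farthest libraries and 0.50 without RH6, that of *Pvalb* with *Lhx6* to -0.25 and -0.27, and that of *Tac1* with *Tac2* to -0.16 and -0.28. Without RH6 the KO-Nut3 group has 2 libraries. No paired analysis was possible because each animal number belongs to a single library and the groups share none. With 3 libraries a group, intervals of the log2 fold change had a median half-width of 0.16 between the vehicle groups, 0.18 between the WT groups, 0.28, 0.33 and 0.32 for KO-Nut3 against KO-Veh, WT-Nut3 and WT-Veh, and 0.38 for the interaction.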

Other observations

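The summed level of 7 Cajal-Retzius genes, *Reln* the most abundant, was 232 CPM in KO-Nut3 RH6 against 134 to 165 CPM elsewhere, with 5 of the 7 highest and *Ndnf* lowest there. Among the 5, *Ebf3* was at 19.0 CPM against at most 2.62 CPM and *Lhx5* at 6.43 CPM against at most 0.39 CPM, and both are also on the midbrain and hindbrain list, whereas *Trp73*, a marker of these cells, was at 4.44 CPM, within the range of the others. Of 10 striatal genes, 6 were highest in RH6, with the dopamine receptor *Drd2* at 8.98 CPM against at most 3.72 CPM, and their sum was 122 CPM against 68.3 to 102 CPM. For 10 habenula genes the sum was 90.1 CPM against 56.7 to 67.2 CPM, with 6 highest in RH6 and 2 lowest, *Tac2* and *Nwd2*, the most abundant of the list, at 26.0 CPM against 28.2 to 39.8 CPM. The habenula marker *Gpr151* was at 0.83 CPM in RH6, within the range of the others, while *Pou4f1* was at 9.26 CPM against at most 0.22 CPM.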
